A study of Homo sapiens with 4 samples.

Results

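Spheroids of the lung adenocarcinoma line H1993 were compared with spheroids of the lung adenocarcinoma line A549, gene by gene, in 2 of the 4 messenger RNA libraries of the series. The pair is defined by its labels, but it was chosen to be compared with earlier results of these data known. Both libraries come from the same culture form, in which cells grow as rounded clusters, and they differ in the line. The labels give no medium or duration. The other 2 libraries come from the same lines grown as an attached layer (adherent culture), and each line and culture has 1 library. No group carries a treatment or an engineered allele according to the labels, and all 4 are described there as lung epithelial cells.

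Lung epithelium descends from the foregut endoderm, and lung adenocarcinomas keep or lose different parts of that program. Airway secretory cells make gel-forming mucins, alveolar type 2 cells make surfactant, and neighbouring endodermal organs such as liver and stomach share several of the transcription factors. A549 is known as a line that lacks CDKN2A and carries damaged STK11 and KEAP1, and KEAP1 normally holds the antioxidant factor NRF2 in check. H1993 is known for amplification of MET, which encodes the receptor of hepatocyte growth factor.

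With 1 library per group, no difference below has a replicate check, and none was tested against biological variation. Reads counted on exons were scaled with TMM factors (trimmed mean of M values, a correction for library composition) and are given as CPM, the count relative to the scaled total of the library. Of 43622 genes in the tables, 15825 had a mean of at least 0.5 CPM over the 2 spheroid libraries. Such a gene was called higher or lower in H1993 spheroids when its fold was at least 2 and the 95% counting interval of the pair of counts excluded no change. That interval covers counting error only and treats reads as independent. PCR copies cannot be told from separate molecules, so it may be too narrow even for that. Exonic reads numbered 17681746 in A549 spheroids and 15331121 in H1993 spheroids, so 3 reads, the limit that a count of 0 allows, correspond to 0.180 and 0.192 CPM. The share of intronic reads was 8.43% and 11.6%, and that of mitochondrial genes 6.68% and 4.57%. A value in parentheses after a gene is its log2 fold of H1993 spheroids over A549 spheroids, followed for low counts or key genes by that interval. Where 4 values follow each other below, their order is A549 adherent cells, A549 spheroids, the library labelled H1993 adherent, and H1993 spheroids. The library labelled H1993 adherent lay nearer to A549 adherent cells (Pearson correlation of log2 CPM across genes 0.965) than to H1993 spheroids (0.858), and genes are not independent replicates. Its values are therefore printed but support nothing about the H1993 line, and the A549 adherent library serves as the second view of A549.

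The spheroid libraries of the lines differed widely. Higher values in H1993 spheroids were called for 3185 of the 15825 genes (20.1%) and lower ones for 3079 (19.5%), 39.6% in all, and the median log2 fold was 0.02. The shares of 20.1% and 19.5% are those to set beside the counts of every list and family below. Medians against A549 adherent cells, given beside those of many lists, share the H1993 spheroid library. In that comparison the median of all genes was 0.02 too. Where such a median has the other sign, the direction of the list depends on which A549 library is used. A gene with few reads in one line passed the filter only through the other, where it had to be higher, so counts and medians over the members that passed describe them and support nothing further. A fold of at least 10 was reached by 699 of the higher and 457 of the lower genes. The correlation of log2 CPM across genes was 0.820 between the pair, against 0.918 between A549 adherent cells and A549 spheroids. A group of 92 genes had at least 50 reads in H1993 spheroids and 0 in A549 spheroids. Of these, 56 also had 0 reads in A549 adherent cells and 3 had 10 or more. The reverse group, at least 50 reads in A549 spheroids and 0 in H1993 spheroids, held 29 genes, and 22 of them had at least 10 reads in A549 adherent cells.

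Among the 15 genes with the highest folds, counting those that reached 500 reads in either library, were genes of squamous and surface epithelium and of placenta. SPRR3, a small proline-rich protein of the cornified envelope, had 1, 2, 58 and 10138 reads. PSCA, a lipid-anchored surface antigen, had 4, 10, 194 and 15903, and MACC1, known as a regulator of MET expression, had 0, 5, 58 and 5422. KLK6, a secreted kallikrein protease, had 1, 0, 113 and 1962 reads and was at least 698-fold higher in H1993 spheroids. Each of these was at most 10 reads in both A549 libraries. At the other end, CST1, a secreted cystatin that inhibits cysteine proteases, had 78, 7404, 9 and 0 reads and was at least 2311-fold lower. KCNE4, a potassium channel subunit, had 51, 3407, 3 and 0 reads and was at least 1064-fold lower. Both were far higher in A549 spheroids than in A549 adherent cells. CPLX2, a regulator of vesicle fusion, was instead high in both A549 libraries, with 17970, 13245, 601 and 27 reads and a log2 fold of -8.74, interval -9.45 to -8.30.

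**Figure D1:**
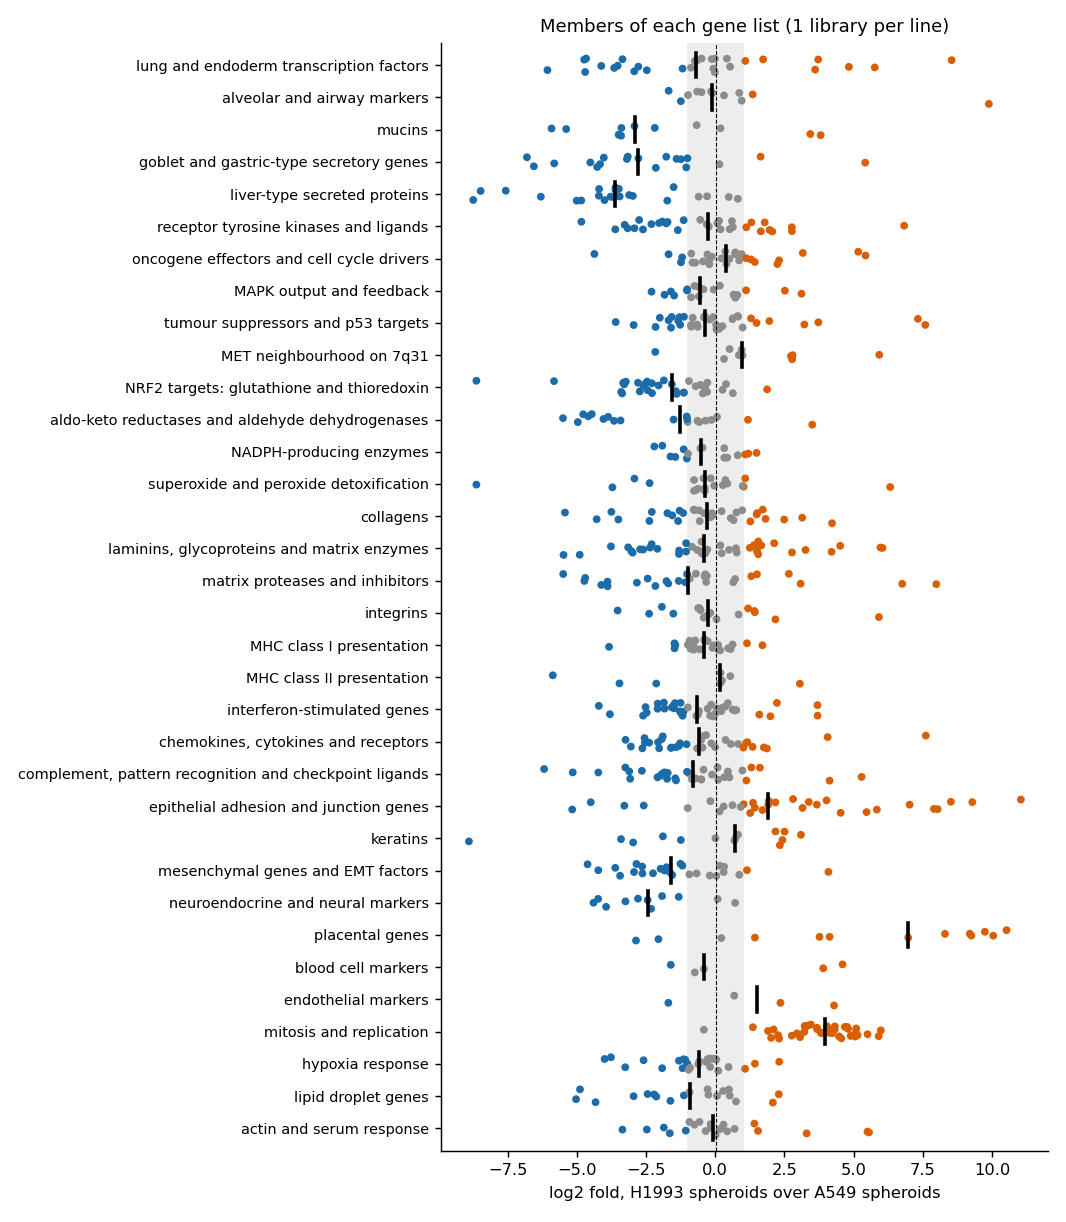
Log2 fold of H1993 spheroids over A549 spheroids for the members of 34 gene lists that passed the low-count filter, with 1 point per gene, blue for lower, orange for higher and grey for neither, and a black bar at the list median. The dashed line is the median of all genes and the grey band spans less than 2-fold. The mitosis list lies almost wholly to the right, the liver-type, mucin and NRF2 lists to the left, and the placental list has its median at 6.98.

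Endodermal transcription factors were split between the lines. Of 36 listed lung and endoderm factors, 29 passed the filter, 12 were lower and 7 higher in H1993 spheroids, and the median log2 fold was -0.68 (-0.67 against A549 adherent cells, and -0.20 without the low-count filter). HNF4A (ENSG00000101076, chromosome 20, 44355700 to 44434596, hg38), a factor of hepatocytes and gut epithelium, stood at 30.3, 29.5, 0.0582 and 0.319 CPM. Its log2 fold was -6.06, interval -8.16 to -5.30, from 493 reads in A549 spheroids and 5 in H1993 spheroids. It was high in both A549 libraries and near the counting limit in H1993 spheroids. FOXA2, a pioneer factor of endoderm, gave -2.78, and FOXA3, its hepatic relative, -4.12. SOX2 and TP63, which mark proximal airway and basal cells, were lower by log2 folds of -4.67 and -4.70. SPDEF, the driver of goblet cell differentiation, was at 16.7, 92.1, 5.06 and 7.22 CPM with a log2 fold of -3.65. The reverse held for the grainyhead factors, which maintain epithelial junction genes. GRHL2 had 0, 1, 100 and 1068 reads and a log2 fold of 8.54, interval 7.67 to 15.46, and GRHL1 had 22, 9, 40 and 293 reads and 4.83. OVOL1, a repressor of mesenchymal genes, had 0, 4, 13 and 307 reads (5.77). The gut factor CDX2 (3.72), the endodermal factor GATA6 (1.73) and FOXA1 (1.09) were higher as well.

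Markers that define lung epithelium were nearly absent from both libraries. NKX2-1, the master factor of lung and thyroid, had 0, 0, 12 and 13 reads, too few to pass the filter. The surfactant genes SFTPA1 and SFTPA2 and the club cell gene SCGB1A1 had 0 reads in all 4 libraries, and SFTPB had 0, 2, 0 and 2. Of 33 alveolar and airway markers in the tables, 12 passed, 2 were higher and 2 lower. The list median was -0.13, but 0.43 against A549 adherent cells. BPIFA1, an antimicrobial secretory protein of the upper airway, was the exception in size at 1, 1, 78 and 2717 reads (log2 fold 9.89, interval 9.02 to 16.81). LPCAT1, which makes surfactant phosphatidylcholine, was at 154, 206, 206 and 528 CPM (1.35). Neither surfactant genes nor NKX2-1 thus mark these libraries as lung epithelium.

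Proteins that the liver secretes into blood were lower in H1993 spheroids. Of 36 listed genes, 23 passed the filter, 19 were lower and 0 higher, and the median log2 fold was -3.61 (-1.87 against A549 adherent cells). The 3 fibrinogen chains, neighbours on chromosome 4, stood out. FGA had 1644, 1341, 291 and 1 reads, FGB 1303, 498, 159 and 4 and FGG 1329, 1494, 95 and 2, and their log2 folds were -8.74, interval -15.60 to -7.81, -6.30 and -8.48, interval -12.50 to -7.59. Together they took 0.0189% of exonic reads in A549 spheroids and 4.57e-05% in H1993 spheroids. ALB, serum albumin, went with A549 spheroids alone, at 0.574, 59.5, 0.0582 and 3.13 CPM (log2 fold -4.20, interval -4.69 to -3.84). Coagulation factor gene F5 (-7.57, interval -14.42 to -6.63), the hepatokine FGL1 (-5.01), the adhesive plasma protein VTN (-4.21) and APOH, beta-2-glycoprotein I (-3.65), were lower too. The protease inhibitor SERPINA1 gave -1.73, but 2.36 against A549 adherent cells, as ALB gave 2.22. Genes neither higher nor lower were APOE at -0.29, RBP4 at 0.49, AGT at 0.82 and HPX at -0.60.

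The promoters of these genes were searched for the core letters of the HNF1 motif, GTTAAT on either strand within 250 bases before the RefSeq start site (build GRCh38.p14). A RefSeq promoter was matched for 28 of the 36 genes, and 9 of them held the motif (32.1%), against 7.5% of 27305 genes with a promoter in the table. Of the members that passed the filter, 8 held it and 8 were lower, and of the 11 without it 7 were lower. Over all genes tested, 19.5% were lower. Members with few reads in H1993 spheroids, the fibrinogen chains among them, passed only through A549 spheroids, where they had to be higher. The split by motif therefore describes these members and supports nothing further. The promoters of a fibrinogen chain, albumin and APOH are printed because their genes were lower and each holds the motif, in capitals (ATTAAC is the same site on the other strand). They are on the + strand at chr4:154562730-154562979 (FGB), on the + strand at chr4:73404037-73404286 (ALB) and on the - strand at chr17:66229416-66229665 (APOH).
FGB: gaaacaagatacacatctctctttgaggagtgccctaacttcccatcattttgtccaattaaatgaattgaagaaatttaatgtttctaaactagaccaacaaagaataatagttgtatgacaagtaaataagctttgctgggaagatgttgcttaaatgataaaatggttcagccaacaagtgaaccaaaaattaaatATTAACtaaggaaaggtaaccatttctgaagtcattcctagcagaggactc
ALB: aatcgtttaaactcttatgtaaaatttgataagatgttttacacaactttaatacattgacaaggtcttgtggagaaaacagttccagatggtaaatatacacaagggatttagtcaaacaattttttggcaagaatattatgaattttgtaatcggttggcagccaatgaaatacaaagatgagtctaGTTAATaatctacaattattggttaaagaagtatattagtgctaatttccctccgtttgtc
APOH: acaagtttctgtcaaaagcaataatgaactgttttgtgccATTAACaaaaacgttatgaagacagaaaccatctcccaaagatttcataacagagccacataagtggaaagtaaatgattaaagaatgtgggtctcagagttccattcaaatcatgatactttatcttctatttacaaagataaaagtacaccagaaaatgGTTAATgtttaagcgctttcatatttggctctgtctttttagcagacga
In FGB the site spans bases 51 to 46 before the start, in ALB bases 61 to 56, and APOH holds 2 sites, the first at bases 210 to 205. A match describes letters, not binding.

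Gel-forming mucins were much lower in H1993 spheroids, and the membrane mucin MUC1 was higher. Of 18 listed mucins, 11 passed, 7 were lower and 2 higher, and the median log2 fold was -2.92. MUC5AC (ENSG00000215182, chromosome 11, 1157953 to 1201138, hg38), the main mucin of airway and stomach surface cells, stood at 192, 10189, 8.56 and 169 CPM. Its log2 fold was -5.91, interval -5.97 to -5.86. MUC5B, its neighbour and the mucin of airway glands, stood at 629, 15365, 119 and 1454 CPM (log2 fold -3.40). Both genes together took 2.42% of exonic reads in A549 spheroids, 0.166% in H1993 spheroids and 0.0823% in A549 adherent cells. Against A549 adherent cells the log2 folds were -0.19 for MUC5AC and 1.21 for MUC5B, and the median of the list was 0.00. The high value is thus that of the A549 spheroid library. In a bulk library, fewer cells of a kind and less RNA per cell cannot be told apart. MUC2, the gut mucin, was at 31, 352, 8 and 6 reads (-5.39), and the membrane mucin MUC13 gave -3.49. MUC1 stood at 23.2, 66.2, 70.1 and 929.7 CPM, above every other library in H1993 spheroids, with log2 folds of 3.81 against A549 spheroids and 5.32 against A549 adherent cells. Per transcript length, the deposited TPM put MUC5B (2661) and MUC5AC (1881) above MUC1 (45.2) in A549 spheroids. The order turned in H1993 spheroids, where MUC1 stood at 723 TPM, MUC5B at 287 and MUC5AC at 35.5.

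Genes that accompany mucin secretion were mostly lower as well. Of 30 goblet and gastric-type genes, 19 passed, 16 were lower and 2 higher, and the median log2 fold was -2.78, with 0.36 against A549 adherent cells and -1.78 without the low-count filter. FCGBP, a mucus protein that binds to mucins, stood at 30.6, 3426, 5.76 and 60.6 CPM (-5.82, interval -5.91 to -5.73). AGR2, a disulfide isomerase needed for mucin folding, was at 303, 2671, 355 and 299 CPM (-3.16). GALNT5, which starts O-glycan chains, gave -6.80, and GCNT3, which branches them, -4.26. TFF1, a trefoil peptide of gastric mucus, had 11, 606, 55 and 23 reads (-4.51). REG4, a gastrointestinal lectin, had reads only in A549 spheroids, 0, 192, 0 and 0 in the 4 libraries, and was at least 59.9-fold lower. CREB3L1, a transcription factor of the secretory pathway, was at -3.19. Against A549 adherent cells FCGBP gave 0.98, TFF1 0.95 and CREB3L1 0.36, so these too were high in A549 spheroids alone. AGR3 (1.64) and KLK10 (17, 1, 6 and 121 reads) were higher.

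Epithelial adhesion genes were mostly higher in H1993 spheroids. All 32 listed members passed the filter, 22 were higher and 4 lower, and the median log2 fold was 1.93 (1.90 against A549 adherent cells). EPCAM, an adhesion molecule of simple epithelia, stood at 26.3, 18.4, 15.5 and 301 CPM (4.02, interval 3.86 to 4.20), so that all A549 values lay below the H1993 spheroid value. CDH1, which encodes E-cadherin, was at 105, 89.0, 103 and 214 CPM, a log2 fold of only 1.26. The tight junction gene CLDN7 gave 8.52 and CLDN4 3.67. ESRP1 and ESRP2, splicing factors of epithelial isoforms, gave 7.02 and 8.04. RAB25, a small GTPase of apical recycling, had 0, 0, 68 and 1209 reads and was at least 430.3-fold higher. The 4 lower members were CLDN2, a pore-forming claudin (-5.17), and 3 carcinoembryonic antigen genes, CEACAM6 (-4.50), CEACAM1 (-3.28) and CEACAM5 (-2.58). CEACAM6 stood at 214, 2303, 16.3 and 102 CPM, highest in A549 spheroids. Against A549 adherent cells CEACAM1 gave 0.27 and CEACAM5 0.97.

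Keratins went both ways. Of 20 listed, 14 passed, with 5 higher and 5 lower. The list median was 0.71 (0.05 against A549 adherent cells, and 0.29 with a mean of at least 5 CPM). KRT20, a keratin of gut and urothelial surface cells, had 10, 2006, 1 and 2 reads and a log2 fold of -8.90, interval -12.92 to -8.02. KRT19, of simple and ductal epithelium, stood at 83.6, 320.2, 38.8 and 1821 CPM (2.51). KRT80 (3.10) and KRT6A (2.18) were higher and KRT81, a hair keratin, lower (-3.40). Per length, KRT18 was at 1632 TPM in A549 spheroids and 3092 in H1993 spheroids, KRT8 at 1471 and 2708, and KRT19 at 441 and 2860. The mesenchymal list lay on the other side: of 28 genes, 26 passed, 16 were lower and 2 higher, and their median was -1.60 (-1.43 against A549 adherent cells). VIM, the intermediate filament vimentin, stood at 539, 1009, 588 and 93.0 CPM (-3.44). The semaphorin and VEGF co-receptor NRP2 gave -4.61, the receptor AXL -3.61 and ZEB1, a repressor of CDH1, -2.64. The 2 higher genes were PRRX1 (0, 1, 5 and 47 reads) and SNAI2 (8, 9, 65 and 21 reads), both at low counts, and SNAI2 fell short of 2-fold with total gene reads (0.96).

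Receptor tyrosine kinases and their ligands showed both directions, with the EGF and HGF receptors higher. Of 40 listed genes, 32 passed, 9 were higher and 14 lower. The list median was -0.27 (0.32 against A549 adherent cells, and 0.01 with a mean of at least 5 CPM). MET (ENSG00000105976, chromosome 7, 116672390 to 116798386, hg38) stood at 289.8, 244, 381 and 1668 CPM, a log2 fold of 2.77, interval 2.72 to 2.82 against A549 spheroids and 2.52 against A549 adherent cells. The H1993 spheroid value lay above the other 3 libraries, which spanned 244 to 381 CPM. EGFR, the EGF receptor, was at 265, 234, 193 and 916 CPM (1.96). Higher too were MST1R, the MET relative RON (1.79), the ephrin receptor EPHA2 (1.31), and the EGFR ligands HBEGF (2.06) and EPGN (0, 1, 8 and 324 reads, 6.83, interval 5.95 to 13.74). Lower members included HGF, the MET ligand, at 16, 118, 48 and 2 reads (-4.84, interval -8.85 to -3.90), the ERBB3 ligand NRG1 (-3.27), the EGFR ligand AREG (-2.92), AXL and ROS1 (-2.61, but 0.91 against A549 adherent cells). ERBB2 at 0.52 and ERBB3 at -0.54 were within 2-fold.

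The genes around MET were not all as far apart as MET itself. Within 3 Mb of its start, 15 genes passed the filter, 6 were higher and 1 lower, and the median of these 15 was 0.96. On chromosome 7 as a whole, 257 of 790 genes were higher (32.5%) and 122 lower, with a median of 0.34. CAV2, a caveolin, starts 0.39 Mb before MET and gave 2.74. TES, a focal adhesion protein gene 0.46 Mb before it, gave 2.78, close to MET. CAV1, which lies between CAV2 and MET, gave 0.96, and CAPZA2, the next gene after MET, 0.86, both under 2-fold. Copy number was not measured.

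**Figure D2:**
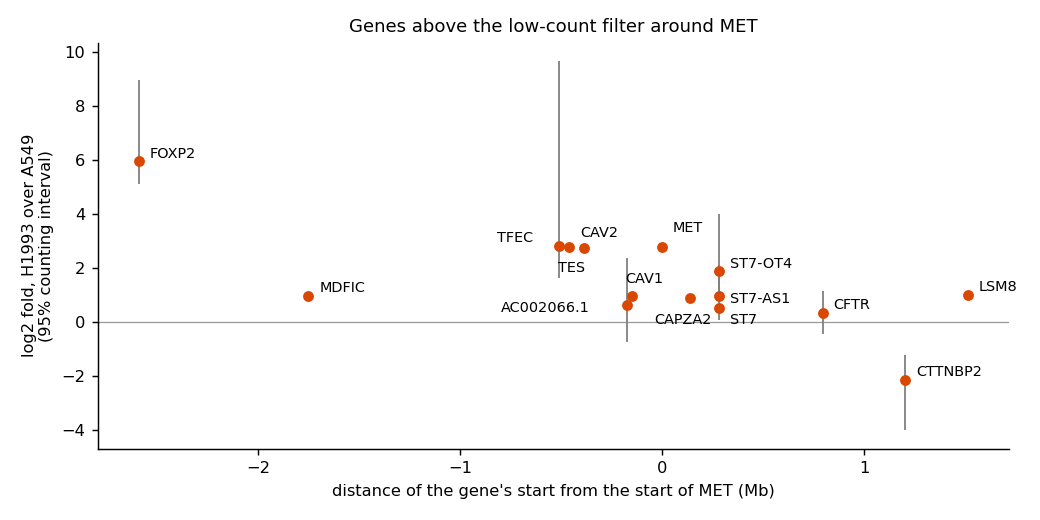
Log2 fold of H1993 spheroids over A549 spheroids for the 15 genes within 3 Mb of the start of MET that passed the filter, by distance of their start in Mb, with 95% counting intervals of the 1 library per line. MET, CAV2 and TES lie between 2.74 and 2.78, TFEC at 2.80 rests on 1 read in A549 spheroids (interval 1.60 to 9.65), CAV1 just before MET and CAPZA2 just after it lie under 1, and FOXP2, at 5.93, rests on 3 reads in A549 spheroids.

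Downstream of these receptors, oncogene effectors and cell cycle drivers had a median log2 fold of 0.39 over the 28 of 30 that passed, with 8 higher and 4 lower (0.23 with a mean of at least 5 CPM). MYC was at 93.2, 30.9, 53.5 and 154 CPM (2.31), with 0.72 against A549 adherent cells. SRC, a membrane-bound tyrosine kinase, was lower at 301, 367, 107 and 17.7 CPM (-4.37, interval -4.55 to -4.20). TERT, the catalytic subunit of telomerase, had 97, 1, 54 and 122 reads, so that A549 spheroids alone stood low. Genes that report MAPK activity showed no common direction: all 20 passed, 3 were higher and 6 lower. Their median was -0.54, but 0.46 against A549 adherent cells. DUSP5, a phosphatase of ERK, gave 2.52, EPHA4 3.12, and the RAS inhibitor SPRED1 -2.30. DUSP6 at -0.87 and SPRY4 at 0.17 were within 2-fold.

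Tumour suppressor genes included a difference in presence. CDKN2A and CDKN2B, which encode inhibitors of CDK4 and CDK6, had 0 reads in both A549 libraries. In H1993 spheroids CDKN2A (ENSG00000147889, chromosome 9, 21967753 to 21995301, hg38) had 308 reads and CDKN2B 371 (75 and 89 in the library labelled H1993 adherent), at least 109.6-fold and 132-fold above A549 spheroids. Their neighbour MTAP, a methionine salvage enzyme, had 37, 67, 131 and 853 reads (3.72). SMARCA4, the ATPase of the SWI/SNF chromatin remodeller, was at 17.3, 14.1, 28.6 and 133 CPM, low in both A549 libraries (3.22, interval 3.04 to 3.43). All 37 listed suppressors and p53 targets passed, 7 were higher and 11 lower, and the list median was -0.38. Lower p53 targets included the CDK inhibitor CDKN1A (-2.0), the mitochondrial quality gene SPATA18 (-3.60), the oxidoreductase TP53I3 (-2.95) and the cytokine GDF15 (-2.16). MDM2, which degrades p53 and is itself a target, was higher (1.29). STK11 gave -0.20 and KEAP1 0.64, both within 2-fold.

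Cell division genes were higher in H1993 spheroids than in A549 spheroids, while their median lay below that of A549 adherent cells. All 40 passed, 39 were higher and 0 lower, and the list median was 3.95, against -0.96 relative to A549 adherent cells. MKI67, the antigen Ki-67, stood at 415, 3.77, 283 and 129.7 CPM, so that A549 spheroids were lowest and A549 adherent cells highest. CDC20, which turns on the ubiquitin ligase of anaphase, had 1404, 19, 1240 and 1247 reads (5.98). The member that was neither higher nor lower was PCNA, the replication clamp, at -0.41. CCNE1 (3.17) and CCNE2 (5.17), which drive entry into DNA replication, lay with this list.

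Antioxidant and detoxifying genes were lower in H1993 spheroids. Of 35 genes listed for the NRF2 pathway, all passed, 23 were lower and 1 higher. The list holds glutathione and thioredoxin genes, ferritins and exporters, and also NRF2 itself (NFE2L2), KEAP1 and MAFG. Its median log2 fold was -1.57 (-1.87 against A549 adherent cells). GPX2 (ENSG00000176153, chromosome 14, 64939152 to 64942905, hg38), an intestinal glutathione peroxidase, stood at 361, 884, 15.9 and 2.11 CPM and a log2 fold of -8.63, interval -9.25 to -8.22. NQO1, a quinone reductase and standard NRF2 target, was at 1727, 2494, 1720 and 432 CPM (-2.53, interval -2.57 to -2.49). Both were high in both A549 libraries. The ferritin light and heavy chains, FTL (-3.33) and FTH1 (-2.45), together took 1.04% of exonic reads in A549 spheroids and 0.155% in H1993 spheroids. GSTP1, a glutathione transferase, gave -3.29, the conjugate exporter ABCC2 -3.40 and GCLC, the catalytic subunit of glutathione synthesis, -2.59. Its modifier subunit GCLM, at 258, 141, 145 and 185 CPM, was within 2-fold of both A549 libraries, with 0.39 against A549 spheroids and -0.48 against A549 adherent cells. The cystine transporter SLC7A11 (-0.95), the thioredoxin reductase TXNRD1 (-0.71) and the heme oxygenase HMOX1 (-0.30) were within 2-fold. UGT1A6 was higher (1.87), but 5.70% and 12% of its reads in the spheroid libraries of A549 and H1993 were unique to it, and genes of this locus share exons.

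Aldo-keto reductases and aldehyde dehydrogenases, which clear reactive carbonyls, were mostly lower as well. Of 22 listed, 20 passed, 12 were lower and 2 higher, and the list median was -1.27, or -1.92 against A549 adherent cells. AKR1B10 stood at 3059, 7797, 629 and 249 CPM (-4.97, interval -5.01 to -4.92) and ALDH3A1 at 1820, 4132, 453 and 91.1 CPM (-5.50, interval -5.58 to -5.43). ALDH1A1, used as a marker of stem-like cells, was at 10772, 7082, 7647 and 259 CPM (-4.77). Log2 folds of AKR1C1, AKR1C2 and AKR1C3, close copies that reduce steroids and prostaglandins, were -4.04, -4.46 and -4.59. These 6 genes together took 2.57% of exonic reads in A549 spheroids and 0.101% in H1993 spheroids, a ratio of 25.5. Reads unique to AKR1C2, the least distinct of them, were 66.0% and 65.6% of its total. ALDH1A2, a retinoic acid producer, was higher at 4, 3, 22 and 52 reads (3.51, interval 2.58 to 6.53).

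Enzymes that supply NADPH and clear peroxide were less one-sided. Of 16 NADPH genes, 6 were lower and 3 higher, and the list median was -0.50. The pentose phosphate enzyme PGD (-2.20) was lower, and the mitochondrial enzymes ME2 (1.49) and MTHFD2 (1.08) higher. Among 22 genes of superoxide and peroxide detoxification 20 passed, 4 were lower (20%) and 3 higher (15%), near the shares of all genes. The list median was -0.38, or -0.09 against A549 adherent cells. PRDX2, a cytosolic peroxiredoxin, stood at 0.128, 1.20, 3.84 and 106 CPM, low in both A549 libraries (6.32, interval 5.83 to 7.18). GPX8, a peroxidase of the endoplasmic reticulum, was lower (-3.72). Catalase, CAT (-0.67), and the mitochondrial dismutase SOD2 (-0.43) were within 2-fold.

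The antioxidant response element, TGACNNNGC on either strand, was looked for in the same window. Of 24 genes of the NRF2 list with a RefSeq promoter, 11 held it (45.8%), against 13.2% of all 27305 genes. Of the 11 with it, 7 were lower and 1 higher, and of the 13 without it 10 were lower and 0 higher. Over all genes tested, 19.5% were lower and 20.1% higher. GPX2, which was lower, and GCLM, which was neither higher nor lower, are shown because both hold 1 match, in capitals. They lie on the - strand at chr14:64942746-64942995 (GPX2) and on the - strand at chr1:93909431-93909680 (GCLM).
GPX2: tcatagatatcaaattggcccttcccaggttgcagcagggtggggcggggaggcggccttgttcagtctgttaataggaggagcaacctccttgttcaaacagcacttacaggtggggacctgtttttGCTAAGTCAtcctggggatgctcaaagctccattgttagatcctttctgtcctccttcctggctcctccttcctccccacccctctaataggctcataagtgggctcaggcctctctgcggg
GCLM: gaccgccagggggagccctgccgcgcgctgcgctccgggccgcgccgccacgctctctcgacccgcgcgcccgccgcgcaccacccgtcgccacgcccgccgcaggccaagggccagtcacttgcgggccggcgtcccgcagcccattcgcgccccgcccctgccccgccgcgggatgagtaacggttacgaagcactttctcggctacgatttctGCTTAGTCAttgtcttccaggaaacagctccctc
The match spans bases 122 to 114 before the start in GPX2 and bases 34 to 26 in GCLM.

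Matrix genes differed gene by gene rather than as a block. Of 38 collagens, 32 passed, 8 were higher and 11 lower (median -0.29, but 0.28 against A549 adherent cells). Of 44 laminins, glycoproteins and matrix enzymes, 40 passed, 13 were higher and 15 lower (median -0.42, but 0.56 against A549 adherent cells). EFEMP1, the elastic fibre protein fibulin-3, stood at 84.8, 6.76, 57.6 and 454 CPM (6.04, interval 5.80 to 6.35), where A549 spheroids alone were low. Fibrillin gene FBN2 was at 279, 31.5, 58.5 and 583 CPM (4.20). The proteoglycan SPOCK1 (4.52), the elastin cross-linker LOXL1 (5.97, interval 5.07 to 12.88), COL8A1 (4.22) and COL12A1 (2.49) were higher as well. NID1, a basement membrane linker, had 168, 281, 49 and 4 reads (-5.48), and SPARC, a collagen-binding glycoprotein, 356, 155, 18 and 3 (-4.90, interval -7.89 to -4.02). COL5A3 (-5.43, interval -12.28 to -4.46), COL11A1 (-4.28, interval -11.12 to -3.25) and SPP1, osteopontin (-2.71), were lower too. Fibronectin, FN1, gave -0.53. Of the chains of laminin-332, LAMA3 was higher at 2.77 and LAMB3 was within 2-fold at -0.50.

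Among matrix proteases and inhibitors 28 of 33 passed, 6 were higher and 14 lower. The list median was -0.97, but 0.03 against A549 adherent cells. TIMP3, a matrix-bound metalloproteinase inhibitor, stood at 0.829, 0.898, 0.873 and 259 CPM, with 13, 15, 15 and 4057 reads and a log2 fold of 7.99, interval 7.45 to 9.01. H1993 spheroids alone were high. ST14, the membrane protease matriptase, had 2, 5, 64 and 714 reads (6.76), and SPINT1, its inhibitor, gave 3.09. PLAU, the urokinase activator of plasminogen, was lower at 105, 122, 41.5 and 4.47 CPM (-4.73), as were MMP7 (951, 187, 203 and 2 reads, -5.49, interval -9.51 to -4.58), MMP10 (-4.70, interval -8.71 to -3.76) and MMP14 (-2.83). Of 20 integrins, 17 passed, 5 were higher and 4 lower (median -0.27, from -0.54 to 0.01 over the alternatives). Against A549 adherent cells the integrin median was 1.25. ITGB6, an epithelial activator of TGF-beta, was at 3.83, 1.02, 8.50 and 68.7 CPM (5.91, interval 5.39 to 6.86), and the collagen receptor subunit ITGA2 gave 2.18. ITGB1, the common beta subunit, was lower (-1.51), and ITGB4, of hemidesmosomes, was within 2-fold (0.85).

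Immune genes were more often lower than higher in H1993 spheroids, with a few far higher. Of 45 chemokines, cytokines and receptors, 34 passed, 16 were lower and 8 higher (median -0.58). IL7R, the interleukin-7 receptor chain best known from lymphocytes, stood at 0.446, 1.38, 2.79 and 293 CPM, from 7, 23, 48 and 4583 reads (7.61, interval 7.15 to 8.39). The cytokine IL1B gave 1.87 and its antagonist IL1RN had 0, 1, 0 and 46 reads. The TNF family ligand TNFSF15 (-3.24), the alarmin IL33 (-2.55) and the neutrophil chemokines CXCL5 (-3.05) and CXCL1 (-2.03) were lower. IL33, with 26, 1584, 47 and 251 reads, and TNFSF15, with 384, 7345, 82 and 726, were high in A549 spheroids alone, and against A549 adherent cells their log2 folds were 3.18 and 0.92. CXCL8, interleukin-8, was at 97.3, 332, 96.8 and 301 CPM, higher in both spheroid libraries than in A549 adherent cells. The spheroid libraries were within 2-fold of each other (-0.14). Blood cell markers were measured beside these genes: of 24, 5 passed the filter, 2 higher and 1 lower, and the summed level of the list was 96.8 CPM in A549 spheroids and 76.7 in H1993 spheroids. CD68, a lysosomal protein that is not limited to macrophages, made up 89.3 and 67.3 CPM of these sums. Of the 24, 13 had 0 reads in A549 spheroids and 9 in H1993 spheroids. PTPRC, the pan-leukocyte antigen CD45, had 0, 0, 0 and 45 reads and CSF1R, the macrophage receptor, 0, 1, 1 and 41. Both were higher in H1993 spheroids, where intronic reads made up 52.1% and 70.1% of the reads on these genes. LYZ, with 2, 40, 0 and 11 reads, was lower (-1.61), and CD14, with 74, 53, 214 and 29, was within 2-fold (-0.74). The T cell gene CD2, the myeloid genes TYROBP and AIF1 and the globin HBB were at 0 in both spheroid libraries. The part of blood cells in the immune values was not tested.

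Complement, pattern recognition and checkpoint genes numbered 41, of which 36 passed, 16 lower and 5 higher (median -0.82, and -1.26 with a mean of at least 5 CPM). PYCARD, the inflammasome adaptor ASC, had 134, 148, 0 and 0 reads and was at least 46.2-fold lower. The ectonucleotidase NT5E (-4.23), the complement regulator CD55 (-2.65), and components C5 (-3.11) and C3 (-1.83) were lower. CD55 was high in A549 spheroids alone, at 127, 1201, 215 and 191 CPM, and gave 0.59 against A549 adherent cells. HHLA2, a B7 family ligand, had 1, 147, 0 and 2 reads (-5.15, interval -9.16 to -4.23), where A549 spheroids alone were high. NECTIN4, an adhesion molecule, had 20, 8, 12 and 366 reads (5.29), and CD274, which encodes PD-L1, 12, 46, 36 and 136 (1.62).

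Most class I presentation genes were within 2-fold. Of 26 genes, 25 passed, 4 were lower and 2 higher (median -0.40). HLA-B stood at 26.5, 37.5, 42.1 and 22.2 CPM (-0.75) and B2M, the light chain, gave -0.40. ULBP1, a ligand of the NK cell receptor NKG2D, was lower (-3.84). TAP2, a peptide transporter subunit, was higher (1.15), but at 0.61 with reads unique to it and at -0.44 against A549 adherent cells. For class II, 8 of 18 genes passed, 3 lower and 1 higher. The list median was 0.19, but -0.15 against A549 adherent cells and -1.13 with unique reads. HLA-DRA and CD74, the core of class II, had 0 reads in every library. HLA-DMB, a peptide exchange chain, was nevertheless at 12.4, 74.3, 12.6 and 1.15 CPM (-5.87, interval -6.77 to -5.35), with most in A549 spheroids.

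Interferon-stimulated genes went both ways. Of 46, 40 passed, 18 were lower and 5 higher, and the list median was -0.65 (-0.35 against A549 adherent cells, and -0.34 with a mean of at least 5 CPM). ISG15, a ubiquitin-like modifier, had 36, 46, 176 and 581 reads (3.69), and IFIT2, which binds viral RNA, 45, 69, 137 and 862 (3.70). IFIT1 (1.99) and the RNA sensor IFIH1 (2.23) were higher too. IFITM3, a block to virus entry, had 282, 765, 412 and 37 reads (-4.21), and OAS1, which activates RNase L, 754, 3134, 951 and 208 (-3.81). The core of the interferon-stimulated response element, GAAA, any 2 bases and GAAA again on either strand, lay in 24 of 35 listed genes with a RefSeq promoter (68.6%), against 3.71% of all. Of the 21 with it that passed, 11 were lower and 3 higher, and of the 10 without it 3 were lower and 1 higher. The shares over all genes tested were 19.5% lower and 20.1% higher. ISG15 and IFITM3 are shown because both hold the core, in capitals, and stand at opposite ends of the list. They lie on the + strand at chr1:1013247-1013496 (ISG15) and on the - strand at chr11:320861-321110 (IFITM3).
ISG15: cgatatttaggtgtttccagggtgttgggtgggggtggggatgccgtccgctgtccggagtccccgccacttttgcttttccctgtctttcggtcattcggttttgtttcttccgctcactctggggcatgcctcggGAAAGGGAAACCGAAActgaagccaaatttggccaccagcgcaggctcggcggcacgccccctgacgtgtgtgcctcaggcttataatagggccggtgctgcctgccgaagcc
IFITM3: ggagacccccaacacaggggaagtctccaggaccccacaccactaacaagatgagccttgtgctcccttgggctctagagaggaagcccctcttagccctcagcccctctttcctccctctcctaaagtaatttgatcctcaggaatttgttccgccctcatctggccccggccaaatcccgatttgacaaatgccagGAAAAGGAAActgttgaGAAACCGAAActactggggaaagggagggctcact
The ISG15 promoter holds 2 overlapping matches, the first at bases 113 to 104 before the start, and IFITM3 holds 2 separate ones, the first at bases 52 to 43.

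**Figure D3:**
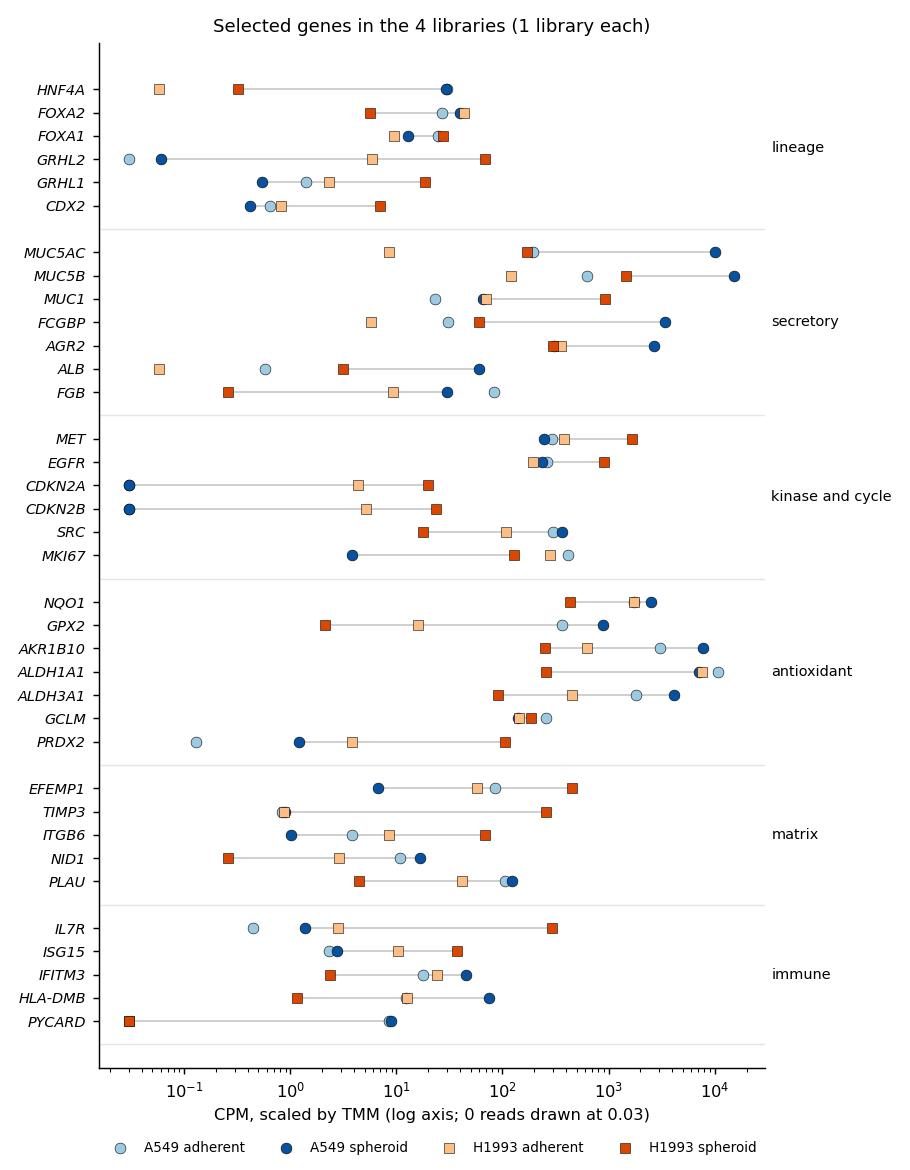
CPM (log axis) of 36 genes named above in the 4 libraries, 1 library each, with blue circles for A549, orange squares for H1993, dark for spheroid and light for adherent, and a grey line joining the spheroid libraries. HNF4A, GPX2, AKR1B10 and SRC are high in both A549 libraries, MUC5AC, FCGBP and ALB only in A549 spheroids, and GRHL2, TIMP3, IL7R and PRDX2 mainly in H1993 spheroids.

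Lists for other cell types and states complete the comparison. Of 24 placental genes, 13 passed, 10 were higher and 2 lower, several of them passing through H1993 spheroids alone. Their median was 6.98, above that of the mitosis list, but 5.80 against A549 adherent cells, 3.79 with a filter that drops genes read in 1 library only, and 1.43 with no filter, the latter pair below the mitosis list, which stayed between 3.83 and 4.06. PSG4, a pregnancy-specific glycoprotein, had 13, 0, 28 and 2853 reads and was at least 1015-fold higher, and PSG5 had 13, 3, 10 and 4066 (9.74, interval 8.95 to 12.78). CGA, the alpha chain shared by the glycoprotein hormones, had 0, 1, 0 and 1753 reads (9.26, interval 8.39 to 16.17), and ALPP, placental alkaline phosphatase, 2, 1, 34 and 3036 (10.05, interval 9.18 to 16.97). The fatty acid carrier FABP4 had 0, 1, 0 and 905 reads (8.30, interval 7.43 to 15.22). The chorionic gonadotropin beta genes CGB3 and CGB8 had 0 reads in both spheroid libraries and CGB5 had 1 in each. INSL4, an insulin-like placental peptide, was lower at 545, 596, 6934 and 75 reads (-2.86). Shares of reads unique to the gene in H1993 spheroids were 91.8% for PSG4, 89.9% for PSG5 and 83.8% for ALPP.

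Neuroendocrine markers were lower, 9 of the 11 that passed out of 22, with 0 higher. Their median was -2.44 (-0.79 against A549 adherent cells, and -1.63 with no filter). SCG2, a secretogranin of dense-core vesicles, had 54, 5747, 93 and 285 reads (-4.23, but 2.36 against A549 adherent cells), and UCHL1, a neuronal ubiquitin hydrolase, 7973, 6321, 8386 and 1087 (-2.44). Of 15 endothelial markers, 4 passed, 2 higher and 1 lower, and the list median was 1.52, or 0.46 with no filter. PECAM1 had 2, 129, 7 and 36 reads and was lower (-1.69). CDH5 had 7, 0, 37 and 36 reads and was at least 12.8-fold higher. SOX18, with 24, 15, 15 and 80 reads, was higher (2.36), and EGFL7, with 466, 1396, 646 and 2104, was within 2-fold (0.69). Among members that did not pass, KDR had 0 reads in both spheroid libraries and VWF had 1, 1, 2 and 0 reads. Hypoxia genes had a median of -0.58, with 10 of 27 lower and 3 higher, and 0.84 against A549 adherent cells. CA12 (-4.0) and CA9 (-3.25, but 0.41 against A549 adherent cells), carbonic anhydrases, were lower and HK2, a hexokinase, higher (2.31). Lipid droplet genes touch the triacylglycerol pathway that the study set out to compare. Their median was -0.93 over 21 of 25, with 9 lower and 2 higher. That median was 0.43 against A549 adherent cells and -0.31 with a mean of at least 5 CPM. CIDEC, a droplet fusion protein, was lower (-5.03), DGAT1, which makes triacylglycerol, higher (2.08), and PLIN2, the droplet coat, stood at 37.2, 711, 89.0 and 587 CPM (-0.28). Of 23 actin and serum response genes, 22 passed, 5 were higher and 5 lower (22.7% each, near the shares of all genes). The list median was -0.08, with 0.04 when scaled by library size alone and -1.0 against A549 adherent cells. AMOTL2 (5.50) and ANKRD1 (5.56), targets of YAP, were higher, and CTGF, another, was lower (-3.35).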

How the data were processed

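Messenger RNA libraries of 4 samples, 1 per line and culture form, were analysed, and no replicate was used. Per the file headers, the deposited tables hold counts of reads on exons, introns and whole genes, and TPM (transcript levels corrected for length and depth) as the authors deposited them. The build is hg38 per the submitters' processing notes. The aligner, the annotation and whether counting used strand are, in the sources used here, not given, so reads of overlapping genes on opposite strands may be mixed. The kit was a stranded one, per the labels' protocols. Total exon counts were scaled with TMM in edgeR 4.0.16 (R 4.3.3), and folds were computed with a prior count of 2 in Python 3.11.15 (NumPy 2.4.6, pandas 2.3.3). Exact 95% Clopper-Pearson intervals of the pair of counts came from SciPy 1.17.1, and DESeq2 1.42.0 gave alternative size factors. Genes with 0 reads are given as bounds at 3 reads, and list medians with such genes at their bound moved by at most 0.001. The scripts were tested on simulated data.

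The lines to compare and the 34 lists were chosen with earlier results of these data known. Genes were named by a rule: the 15 highest and 15 lowest folds with at least 500 reads in the higher library, up to 6 genes per list with at least 100 reads, and a set of lineage, oncogene and antioxidant genes. All other genes named were picked after their values were seen. Some genes that met the rule are not reported here. Alternatives changed the scaling, the low-count filter, the prior count, the kind of read counted and the fold.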

Additional observations from a re-analysis of the deposited data

How the results depend on the processing

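The 11 alternatives that kept the 2-fold limit gave 2742 to 3541 genes higher and 2758 to 3518 lower in H1993 spheroids, except for a mean of at least 5 CPM, which left 11676 genes and gave 1952 and 2030. A limit of 4-fold gave 1438 higher and 1365 lower. With library size alone in place of TMM, the median of all genes shifted by 0.11 on the log2 scale and 56.1% of the calls were higher, against 50.9%, so the smaller list medians depend on the scaling. Of 315 genes that met the naming rule or were picked later, 306 kept their call in every alternative whose filter they passed, and 0 reversed. Scaling by library size took CAV1 (1.07), MDFIC (1.07) and LSM8 (1.10) past 2-fold, and SLPI (-1.05) and SLC7A11 (-1.01) passed it with a mean of at least 5 CPM. Over 374 recomputed list medians, 346 moved by less than the counting error of their members and 28 by more, and 4 lists changed sign in some setting: MHC class II from -1.13 to 0.30, integrins from -0.54 to 0.01, receptor kinases from -0.29 to 0.01 and actin genes from -0.13 to 0.04. No paired analysis was possible because each group has 1 library, and no replicate could be left out for the same reason. Depth limits a gene with 0 reads to a bound at 3 reads, and folds resting on 1 to 3 reads have intervals that span several log2 units.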

Other observations

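Some families outside the lists stood apart in H1993 spheroids and were picked after their values were seen. Of 15 kallikrein genes, 5 passed the low-count filter, each with at most 1 read in A549 spheroids, so their direction was fixed by the filter. KLK8, a protease of skin and brain, had 3, 0, 8 and 825 reads in A549 adherent cells, A549 spheroids, the library labelled H1993 adherent and H1993 spheroids, KLK7, which sheds surface keratinocytes, 0, 0, 4 and 425, and KLK5, which activates it, 1, 0, 0 and 123. Of 11 small proline-rich genes of the cornified envelope, 5 passed, also through H1993 spheroids, and SPRR1B had 0, 0, 1 and 328 reads. S100 genes were mixed, with 15 of 19 passing, 7 higher and 2 lower. S100A14, which encodes a calcium-binding protein of epithelia, stood at 0.829, 10.4, 6.17 and 611 CPM (log2 fold 5.86).

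In the other direction, 4 of 9 type 2 cystatins passed, CST1, CST2 and CST4 only through A549 spheroids, so that their direction was fixed by the filter. CST4 had 4, 245, 0 and 0 reads and CST2 6, 468, 1 and 2, so that both were high in A549 spheroids alone, while the ubiquitous CST3 was lower by less (-1.58, but 0.82 against A549 adherent cells). CYP24A1, which degrades active vitamin D, was at 1120, 125, 874 and 3.71 CPM (-5.03), highest in A549 adherent cells, and CYP4F11, a fatty acid hydroxylase, had 975, 977, 31 and 4 reads (-7.27). Of 39 HOX genes, 26 passed, 13 were lower and 2 higher, against 19.5% lower and 20.1% higher over all genes tested.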
